A study of Mus musculus with 19 samples.

Results

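The MHC class II pathway was followed through 10 genes in bulk RNA-seq of primary mouse sarcomas. The genes are H2-Aa, H2-Ab1, H2-Eb1, Cd74, Ciita, H2-DMa, H2-DMb1, H2-DMb2, H2-Oa and H2-Ob. They were taken by symbol from a table of 48795 Ensembl gene identifiers, 48349 of which carry a symbol, and all 10 were found. Their levels were compared between 11 tumors from Rag2-/- mice and 8 tumors from Rag2+/- mice.

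All 19 tumors are primary p53/MCA sarcomas. Mice of 6-10 weeks of age received an adenovirus carrying Cas9 and a guide RNA against Trp53 (Adeno-sgp53-Cas9) in the gastrocnemius muscle, and then 300 µg of the carcinogen 3-methylcholanthrene (MCA) in sesame oil at 6 µg/µl. Both genotypes therefore share the Trp53-targeting virus and the carcinogen, and no mouse was treated further. Rag2-/- mice lack the recombinase that assembles antigen receptor genes and so make no mature T or B cells, whereas their Rag2+/- littermates make both. Each tumor gave 1 library, taken at a volume of about 70-150 mm3, and libraries are named here S41 to S60 as in the labels. Every tumor arose separately, so the values mix tumor cells, infiltrating immune cells and remnants of the injected muscle. The study asked whether lymphocytes shape these tumors as they grow, and the genotype contrast is its means of asking.

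MHC class II molecules present peptides from endocytosed proteins to CD4+ T cells. An alpha and a beta chain pair in the endoplasmic reticulum with the invariant chain, which guides them to endosomes, is degraded there by cathepsins, and leaves a fragment in the groove that H2-DM exchanges for antigenic peptide while H2-O restrains H2-DM. In mice the genes are expressed mainly by dendritic cells, macrophages and B cells, and the transactivator CIITA, which does not bind DNA itself but assembles on the RFX, CREB and NF-Y factors at an upstream module called the W, X and Y boxes, switches the set on in those cells or in others after interferon gamma.

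Letters of the X and Y boxes were searched around the RefSeq starts of the genes, and the W box was not. RefSeq promoter sequences on GRCm38.p6 were found for 7 of the 10 genes, and in 6 of them (H2-Aa, H2-Eb1, H2-DMb1, H2-DMb2, H2-Oa and H2-Ob) the letters ATTGG, the reverse complement of the Y box CCAAT, start 43 to 90 bases before the RefSeq start. The stretches below run from 60 bases before to 15 bases after those letters and are shown 5′ to 3′ on the strand of each gene because they align the members on the element that they share. In the GENCODE annotation, whose gene starts can lie farther upstream, the H2-DMb2 stretch is inside the gene between exons, the last 16 bases of the H2-Oa stretch are in its 5′ UTR, and the H2-DMb1 stretch (chr17:34153070-34153149, + strand), with 78 of its 80 bases in the 5′ UTR, is not shown. Capitals mark ATTGG and, where it starts 20 to 40 bases earlier, the X box core searched as ACNGATG.
H2-Eb1 (chr17:34305748-34305827, + strand): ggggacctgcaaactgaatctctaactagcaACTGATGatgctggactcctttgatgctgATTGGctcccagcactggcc
H2-DMb2 (chr17:34145099-34145178, + strand): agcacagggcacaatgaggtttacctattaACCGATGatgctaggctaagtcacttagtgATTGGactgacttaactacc
H2-Aa (chr17:34287852-34287931, - strand): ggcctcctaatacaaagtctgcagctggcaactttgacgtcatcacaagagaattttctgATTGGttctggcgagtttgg
H2-Ob (chr17:34238788-34238867, + strand): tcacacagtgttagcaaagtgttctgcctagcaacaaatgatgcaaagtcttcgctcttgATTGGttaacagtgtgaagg
H2-Oa (chr17:34092276-34092355, + strand): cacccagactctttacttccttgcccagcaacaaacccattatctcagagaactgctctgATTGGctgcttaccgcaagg

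In H2-Eb1 the X box core starts 29 bases before ATTGG, and in H2-DMb1 and H2-DMb2 it starts 30 bases before it. Of 32851 mouse promoter sequences of the same 300-base length, 22.1% hold ATTGG on the strand of the gene and 0.0822% hold ACNGATG followed by ATTGG at this spacing. This arrangement was chosen after the sequences were seen. On either strand, ACNGATG was found in 5 of the 7 members and in 9.85% of all promoters, and CCAAT in 7 of the 7 members and in 37.4% of all promoters. The H2-DMb1 and H2-DMb2 stretches are the same at 67 of 80 positions (83.8%), while the other pairs share 23.8 to 41.2%. These are matches of letters in short windows, and binding was not measured.

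The values are the deposited ones, log2 of upper-quartile normalized FPKM after 0.1 was added, so 1 unit is a 2-fold difference, and the log2 of 0.1 is the value of a gene listed at 0. A fold change from them is on this log2(value + 0.1) scale and understates changes of low genes. Estimated depth was 24.8 to 33.7 M fragments on genes in 18 tumors and 5.22 M in S41. S56 had the lowest share of genes above 0 (31.9%, with 33.4 to 39.9% in the others). The mean log2 value of 10 T cell markers, which checks the labels, separated the genotypes, since it was at most -1.80 in the Rag2-/- group and at least -0.03 in the Rag2+/- group. Rag2 itself does not check them, since it was not lower in Rag2-/- tumors. It was at -2.05 to 0.36 (median -0.16) in Rag2-/- and at -2.33 to -0.57 (median -1.13) in Rag2+/- tumors. A gene total includes any transcript outside the disrupted part, which was not examined. Trp53 transcripts were present in all 19 tumors, at 3.47 to 6.35.

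Lymphocyte deficiency did not come with a detectable difference in any of the 10 genes. In a limma fit across 12826 genes with a mean above 0, 8 of the 10 members could be tested and 0 passed an adjusted p of 0.05. In that fit 0.0312% of all genes passed, and they were the 4 genes Igkc, Igha, Tnfrsf18 and Cd2, which were lower in Rag2-/- tumors. At an unadjusted p of 0.05, 0 of the 8 members passed, against 16.3% of all genes. The values of the genotypes overlapped for 10 of 10 members, and were apart for 0.0156% of all genes tested. The difference Rag2-/- minus Rag2+/- had a median of -0.12 over the 8 tested members and of 0.06 over all genes tested.

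**Figure D1:**
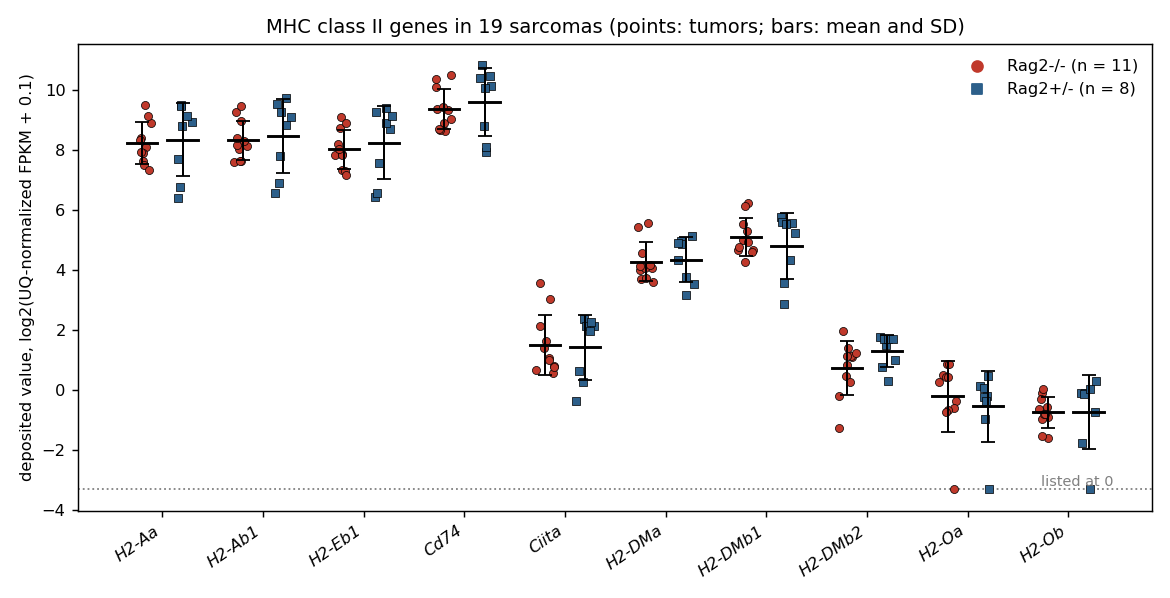
Deposited log2 value (y axis) of the 10 MHC class II genes (x axis) in each Rag2-/- (red circles) and Rag2+/- (blue squares) tumor, with mean and SD as black bars. For every gene the 2 genotypes overlap, and the genes fall into a high set (Cd74 and the classical chains, means of 8.01 to 9.58), an intermediate set (H2-DMa and H2-DMb1) and a low set (Ciita, H2-DMb2, H2-Oa and H2-Ob).

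The classical chains are the alpha and beta chains that carry peptide to the cell surface. H2-Aa (ENSMUSG00000036594, GRCm38 chr17:34282744-34287823, - strand), the alpha chain of I-A, ranged in Rag2-/- tumors from 7.31 in S48 to 9.47 in S46 with a median of 8.07. In Rag2+/- tumors it ranged from 6.40 in S53 to 9.47 in S55 with a median of 8.86. The means were 8.22 ± 0.69 (SD, n = 11) without and 8.32 ± 1.22 (SD, n = 8) with lymphocytes, which differ by -0.10 (exact permutation test over tumors, two-sided, p = 0.822, limma adjusted p = 0.895). The 95% confidence interval of that difference, -0.97 to 0.77, runs from 0.511-fold to 1.70-fold.

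H2-Ab1, the beta chain that pairs with H2-Aa, ranged from 7.57 to 9.46 (median 8.14) in Rag2-/- and from 6.54 to 9.71 (median 8.96) in Rag2+/- tumors. Its difference was -0.14 (exact permutation p = 0.751, limma adjusted p = 0.848). H2-Eb1, the beta chain of I-E, ranged from 7.14 to 9.09 (median 7.84) in Rag2-/- and from 6.41 to 9.37 (median 8.77) in Rag2+/- tumors, with a difference of -0.22 (exact permutation p = 0.617, limma adjusted p = 0.752). For all 3 chains the lowest tumor of the series was S53, a Rag2+/- tumor. The alpha chain partner of H2-Eb1 is annotated as a pseudogene, H2-Ea-ps, and was listed at 0 in all 19 tumors, so the H2-Eb1 transcript was measured without a transcript for its partner.

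In the Rag2+/- group the classical chains were spread widely and unevenly. H2-Aa was at 8.80 or above in 5 of the 8 tumors and at 7.69 or below in the other 3, which are S53, S54 and S56. All 11 Rag2-/- tumors were at 7.31 or above. This wider spread is given as a description and was not tested.

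Cd74 is the invariant chain, the chaperone that fills the groove until the endosome. It was the most abundant member per length, at an average of 729.8 normalized FPKM in Rag2-/- and 960.8 in Rag2+/- tumors, against 333.9 and 411.1 for H2-Aa. On the log2 scale it ranged from 8.63 to 10.48 (median 9.33) in Rag2-/- and from 7.92 to 10.81 (median 10.08) in Rag2+/- tumors. Its difference was -0.22 (exact permutation p = 0.594, limma adjusted p = 0.738, 95% confidence interval -1.05 to 0.61).

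Ciita is the transactivator of the whole set and averaged 3.56 normalized FPKM in Rag2-/- and 3.14 in Rag2+/- tumors. It lay far below Cd74 and the classical chains, below H2-DMa and H2-DMb1, and above H2-DMb2, H2-Oa and H2-Ob. In Rag2-/- tumors it ranged from 0.57 in S41 to 3.54 in S46 (median 1.05). In Rag2+/- tumors it ranged from -0.39 in S56 to 2.34 in S52 (median 2.03), an overlapping range. The difference in means was 0.09 (exact permutation p = 0.853, limma adjusted p = 0.914), although the median was higher in Rag2+/- tumors. Across the 19 tumors the highest level was 15.3 times the lowest, a wider relative range than the 8.42 times of H2-Aa. An estimated 39.9 fragments lay behind the lowest Rag2-/- value and a median of 306 behind that group.

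H2-DM is the endosomal editor that trades the invariant chain fragment for peptide, an alpha chain from H2-DMa paired with a beta chain from H2-DMb1 or H2-DMb2. H2-DMa ranged from 3.60 to 5.54 (median 4.07) in Rag2-/- and from 3.17 to 5.11 (median 4.59) in Rag2+/- tumors, with a difference of -0.06 (exact permutation p = 0.855, limma adjusted p = 0.917). H2-DMb1 ranged from 4.25 to 6.21 (median 4.93) in Rag2-/- and from 2.85 to 5.74 (median 5.37) in Rag2+/- tumors, with a difference of 0.30 (exact permutation p = 0.469, limma adjusted p = 0.634). H2-DMb1 and H2-DMb2 are close copies that lie next to each other, and how reads matching both were counted is not given in the sources used here, so the division between them is uncertain.

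H2-DMb2 was much lower than its copy and showed the largest difference of the tested members. It ranged from -1.29 in S41 to 1.95 in S49 (median 1.09) in Rag2-/- and from 0.30 in S56 to 1.76 in S52 (median 1.58) in Rag2+/- tumors. The difference was -0.57 (exact permutation p = 0.124, limma adjusted p = 0.365, 95% confidence interval -1.30 to 0.15). The SD between tumors was 0.89 in the Rag2-/- and 0.54 in the Rag2+/- group. The lowest value rests on an estimated 2.21 fragments in the shallow library S41. When the level of the macrophage list was added to the limma model, its difference was -0.73 with an unadjusted p of 0.0462, where 12% of all genes had an unadjusted p under 0.05 in that fit, and its limma adjusted p was 0.394.

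H2-Oa and H2-Ob encode the chains of H2-O, which restrains H2-DM and is known best from B cells and some dendritic cells. Both were near the limit of these libraries, with medians of 35.1 and 32.2 estimated fragments in Rag2-/- tumors and of 23.3 and 40.9 in Rag2+/- tumors, and both fell below the filter of the limma fit. H2-Oa was listed at 0 in S41 and in S56 and reached 0.87 in S51, with a difference in means of 0.34 (exact permutation p = 0.542). H2-Ob was listed at 0 in S56, ranged from -1.60 to 0.01 in Rag2-/- tumors and reached 0.29 in S52, with a difference of -0.01 (exact permutation p = 0.974). A limma fit with no filter on low values, which called 0.0533% of 48795 identifiers, gave both an adjusted p of 1.

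The members varied together from tumor to tumor. H2-Ab1 stayed within -0.22 to 0.33 and H2-Eb1 within -0.38 to 0.01 of H2-Aa in the same tumor, while the level of H2-Aa itself moved over 3.07 units. Tumor S46 was the highest of the Rag2-/- group for 7 of the 10 members and S51 for 2. In the Rag2+/- group S55 was the highest for 5 members, S56 the lowest for 6 and S53 the lowest for 4.

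Across the 19 tumors H2-Aa followed H2-Ab1 (r = 0.99, rho = 0.99), H2-Eb1 (r = 0.99, rho = 0.98), Cd74 (r = 0.99, rho = 0.98), H2-DMb1 (r = 0.94, rho = 0.98) and H2-DMa (r = 0.92, rho = 0.96). Each of these had a permutation p of 1e-05, the smallest that 100000 permutations can give, with adjusted p-values of 5e-05 for r and 7.14e-05 for rho over the 50 relations computed. Without the 2 tumors farthest from the median, r was 0.93 or more for each. All points share the library and its depth, which were not separated from the level of the genes.

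H2-Aa also followed Ciita, with r = 0.90 (permutation p = 1e-05) and rho = 0.91 (permutation p = 2e-05) over 19 tumors, and r = 0.88 without S46 and S56. Within Rag2-/- tumors r was 0.92 (permutation p = 0.00011) and rho 0.81 (permutation p = 0.00373). Without S46 and S51 they were 0.79 and 0.65. Within Rag2+/- tumors r was 0.94 (exact permutation p = 0.00551) but rho was 0.69 (exact permutation p = 0.0694). Without S56 and S53 they were 0.88 and 0.31. At the top of the range the transactivator and its target parted, since S46 and S55 had the same H2-Aa level of 9.47 with Ciita at 3.54 in S46 and at 2.13 in S55.

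The remaining members were coupled more loosely. H2-DMb2 gave r = 0.53 (permutation p = 0.0182) and rho = 0.56 (permutation p = 0.0138) over 19 tumors, and r = 0.53 without S41 and S48. Within the groups its r was 0.52 (Rag2-/-, permutation p = 0.1) and 0.77 (Rag2+/-, exact permutation p = 0.0233), and fell to 0.23 and 0.086 without the 2 farthest tumors of each. H2-Ob gave r = 0.68 (permutation p = 0.00085) and rho = 0.67 (permutation p = 0.00222), and r = 0.47 without S56 and S53. Its r was 0.18 in the Rag2-/- group (permutation p = 0.592), with -0.21 without S46 and S42, and 0.86 in the Rag2+/- group (exact permutation p = 0.00742), with 0.68 without S56 and S53. The difference between the groups was not tested. H2-Oa gave r = 0.42 (permutation p = 0.0712) and rho = 0.29 (permutation p = 0.226), and r = 0.12 without S41 and S56, where it was listed at 0. Few fragments stand behind these 3 genes.

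**Figure D2:**
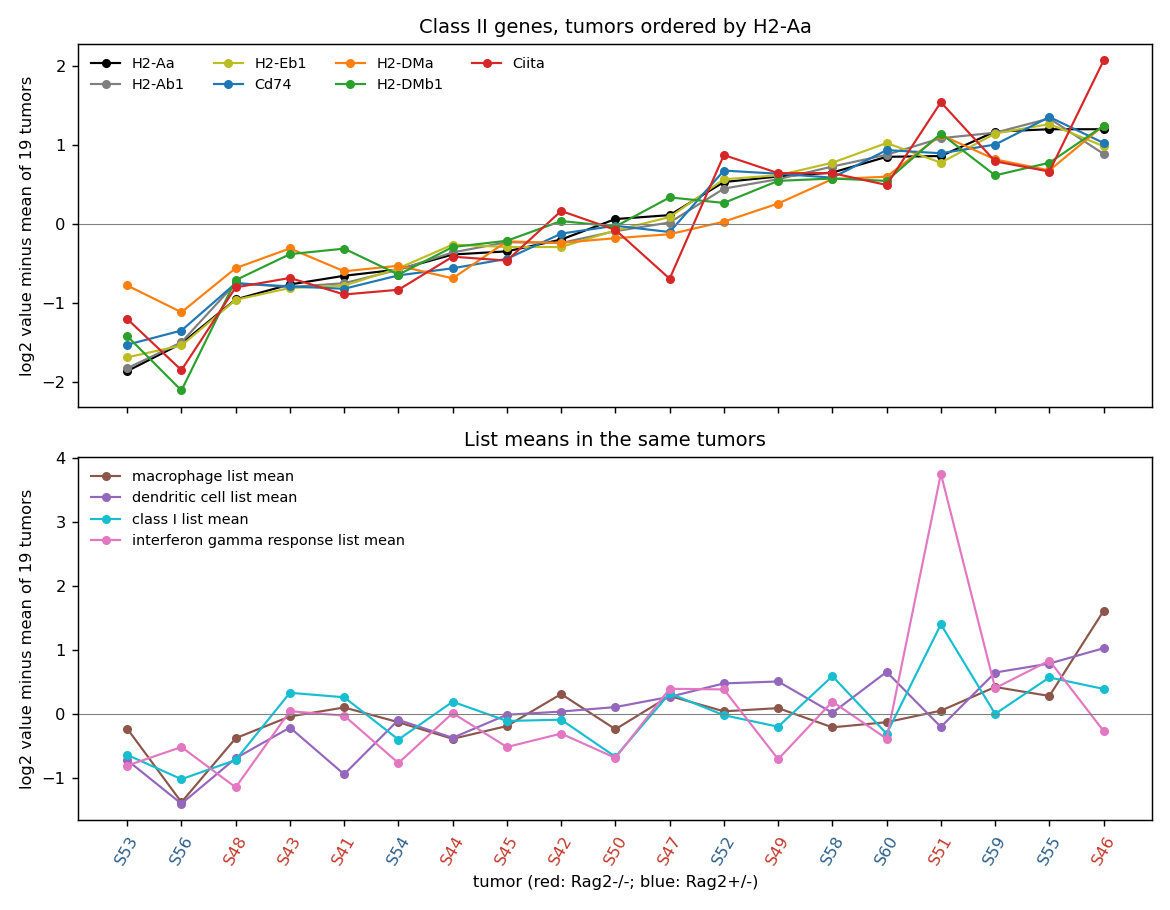
Upper panel, log2 value of 7 class II genes minus the gene's mean over 19 tumors (y axis), with tumors ordered by H2-Aa (x axis, red names Rag2-/-, blue names Rag2+/-). Lower panel, the mean log2 value of 4 marker lists in the same order. Most of these class II genes are lowest in S53 and S56 and high in S51, S59, S46 and S55, while the interferon gamma response list peaks in S51 alone.

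Among all 12825 other genes with a mean above 0, the 5 most like H2-Aa by Spearman rho over 19 tumors were the members H2-Ab1, H2-DMb1, Cd74, H2-Eb1 and H2-DMa, and Ciita ranked 12. H2-DMb2 ranked 759. The 10 genes outside the set that came closest were Abcg1 (rho = 0.95), Map4k1 (0.94), Snap23 (0.94), Sema4a (0.93), Tmem176a (0.92), Cyp4v3 (0.91), Clec7a (0.90), Csf2rb (0.89), Cybb (0.89) and Itgb7 (0.89). Clec7a is the beta-glucan receptor of myeloid cells, Csf2rb the common chain of the GM-CSF receptor and Cybb a subunit of the phagocyte NADPH oxidase. Their differences between genotypes ran from -0.39 for Clec7a to 0.33 for Cyp4v3, with adjusted p-values of 0.542 or more in limma. These likenesses are a description and carry no test.

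Levels in bulk tissue cannot tell fewer cells of a type from less RNA per cell, so markers of the cells known to carry class II were set beside H2-Aa. The list mean of 9 dendritic cell markers had r = 0.87 (permutation p = 1e-05) and rho = 0.87 (permutation p = 1e-05) with H2-Aa over 19 tumors, and r = 0.82 without S56 and S46. It held within the Rag2-/- group (r = 0.79, permutation p = 0.00347, rho = 0.82, permutation p = 0.00343, and r = 0.63 without S46 and S41) and within the Rag2+/- group (r = 0.92, exact permutation p = 0.00258, rho = 0.93, exact permutation p = 0.00223, and r = 0.83 without S56 and S53). The summed level of that list was 12.5 to 33.3 normalized FPKM in Rag2-/- and 8.38 to 47.8 in Rag2+/- tumors.

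The 11 macrophage markers were far more abundant, at a summed 1992 to 6720 normalized FPKM in Rag2-/- and 1199 to 4217 in Rag2+/- tumors. Their list mean had r = 0.63 (permutation p = 0.00213) and rho = 0.63 (permutation p = 0.00481) with H2-Aa over 19 tumors, and r = 0.51 without S46 and S56. Within the Rag2-/- group r was 0.68 (permutation p = 0.0141) and rho 0.55 (permutation p = 0.083), and within the Rag2+/- group r was 0.71 (exact permutation p = 0.0306) and rho 0.76 (exact permutation p = 0.0368). Without the 2 farthest tumors r was 0.38 in the Rag2-/- and 0.59 in the Rag2+/- group. S46 had the highest and S56 the lowest macrophage list mean of all, 7.86 and 4.87. By genotype, 0 of 11 macrophage markers and 0 of the 6 tested dendritic cell markers were called, where 0.0312% of all genes were. At an unadjusted limma p under 0.05 there was 1 macrophage marker, Fcgr1 (difference 0.71, limma p = 0.00566). There were 0 dendritic cell markers, against 16.3% of all genes. Whether the 2 lists differed in their relation with H2-Aa was not tested.

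**Figure D3:**
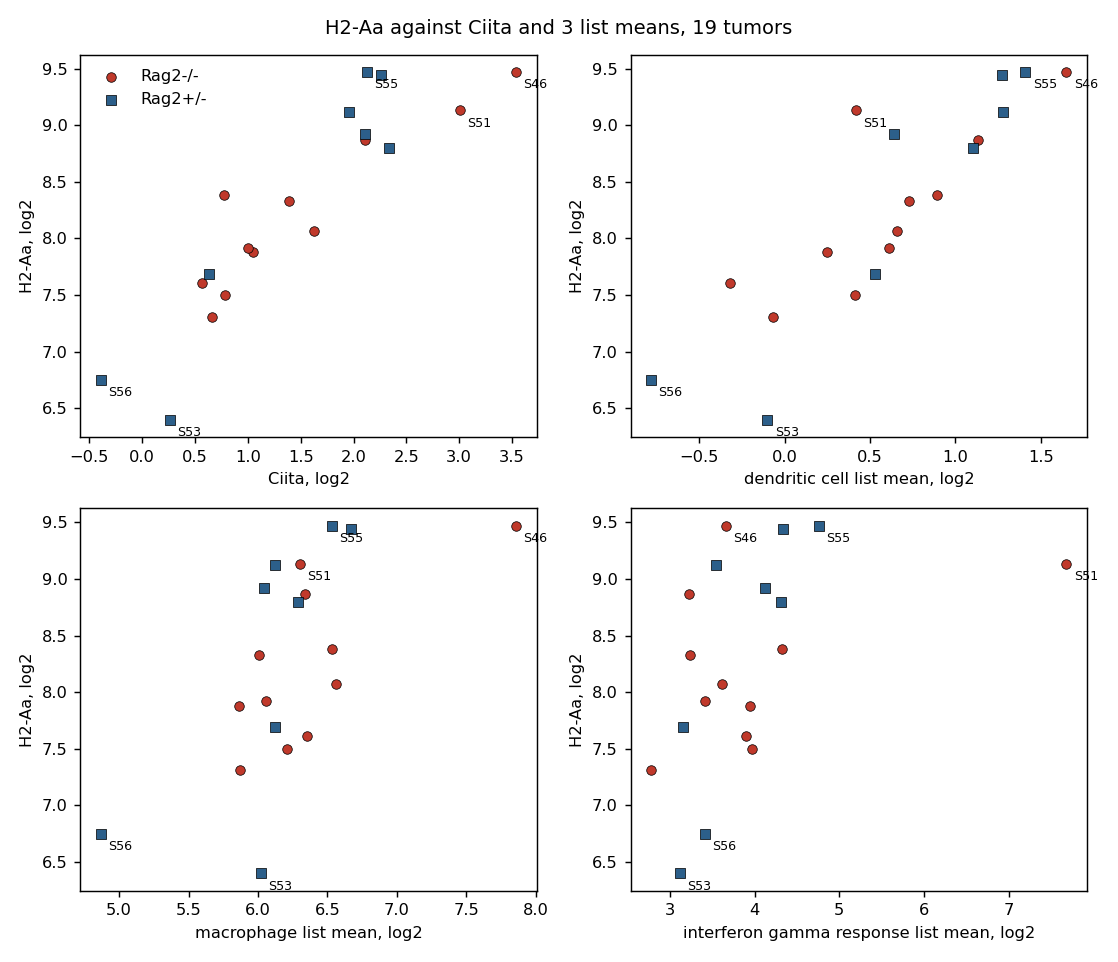
H2-Aa (y axis, log2) against Ciita and the mean log2 values of the dendritic cell, macrophage and interferon gamma response lists (x axes, log2), 1 point per tumor, red circles Rag2-/- and blue squares Rag2+/-. S51 lies at 7.68 on the interferon gamma response axis, apart from the other tumors, which lie between 2.78 and 4.76.

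B cell markers were low throughout. The summed level of the 10 B cell markers was 2.10 to 9.99 normalized FPKM in Rag2-/- and 2.30 to 8.96 in Rag2+/- tumors. The B cell list mean had r = 0.34 (permutation p = 0.161) and rho = 0.24 (permutation p = 0.315) with H2-Aa over 19 tumors, and r = 0.09 without S59 and S58. In the Rag2-/- group r was -0.23 (permutation p = 0.5) and rho -0.11 (permutation p = 0.754), and r was 0.033 without S51 and S47. In the Rag2+/- group r was 0.61 (exact permutation p = 0.108) and rho 0.48 (exact permutation p = 0.243), and r was 0.27 without S59 and S56. The difference between the groups was not tested.

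T cells, the cells that read class II, were nearly absent from Rag2-/- tumors. Within the Rag2+/- group the T cell list mean had r = 0.89 (exact permutation p = 0.00432) and rho = 0.86 (exact permutation p = 0.0107) with H2-Aa, and r = 0.65 without S56 and S53. Within the Rag2-/- group, where 1 of the 10 markers was listed at 0 in every tumor, r was 0.43 (permutation p = 0.189), rho was 0.35 (permutation p = 0.297) and r without S50 and S48 was 0.41. Because the genotypes do not overlap on this list, no relation was computed over all 19 tumors, and the difference between the groups was not tested.

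The level of muscle genes also varied between the groups, and the signs of several class II differences changed when it was put in the model. The skeletal muscle list mean was 8.69 ± 2.14 (SD, n = 11) in Rag2-/- and 10.92 ± 2.49 (SD, n = 8) in Rag2+/- tumors, with overlapping values. Of its 10 markers 0 were called, although 7 were lower in Rag2-/- tumors at an unadjusted limma p under 0.05. In that fit 16.3% of all genes had such a p, in either direction. Without S41 and S56, 0 of the 10 had such a p. With that list in the limma model, H2-Aa went from -0.10 to 0.27, H2-Ab1 from -0.14 to 0.22, H2-Eb1 from -0.22 to 0.13 and Cd74 from -0.22 to 0.10, and 0 members were called, where 0.0156% of all genes were. With H2-Aa the list gave r = 0.38 (permutation p = 0.109) and rho = 0.38 (permutation p = 0.114), and r = 0.59 without S56 and S48. In the Rag2-/- group r was 0.66 (permutation p = 0.0245) and rho 0.70 (permutation p = 0.0206), and r was 0.39 without S51 and S48. In the Rag2+/- group r was 0.22 (exact permutation p = 0.584) and rho 0.12 (exact permutation p = 0.793), and r was -0.23 without S53 and S58. Its part in the class II levels was not tested further.

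Interferon gamma, the best known inducer of Ciita outside professional antigen-presenting cells, was set beside the class II genes through 13 target genes. Tumor S51 stood apart on this list, with a mean of 7.68 against 2.78 to 4.76 in the other 18 tumors. Ifng was at 2.43 in S51 and at -2.10 in S46. The interferon-induced GTPase Gbp2 was at 9.17 in S51, 5.99 in S46 and 6.70 in S55, and Cd274, which encodes PD-L1, was at 7.45, 3.25 and 3.76 in the same tumors.

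Most class II genes were also high in S51, without standing apart there. In S51 and S46, respectively, H2-Aa was at 9.13 and 9.47, H2-Ab1 at 9.46 and 9.26, H2-Eb1 at 8.88 and 9.09, Cd74 at 10.35 and 10.48, Ciita at 3.01 and 3.54, H2-DMa at 5.42 and 5.54, and H2-DMb1 at 6.11 and 6.21. H2-DMb2 and H2-Ob were low in S51, at 0.24 and -1.53, against 1.38 and 0.01 in S46. H2-Oa, at 0.87, was the one member with its highest value of the 19 tumors in S51. Class I presentation had its highest list mean in S51, 8.16 against 7.15 in S46 and 7.33 in S55, and the peptide transporter gene Tap1 was at 7.20, 5.50 and 6.01 in S51, S46 and S55. A single tumor carries this contrast, and it was chosen after its values were seen.

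Over 19 tumors the interferon gamma response list had r = 0.46 (permutation p = 0.0377) and rho = 0.59 (permutation p = 0.00866) with H2-Aa, and r = 0.47 without S51 and S55. In the Rag2-/- group r was 0.42 (permutation p = 0.205) and rho 0.19 (permutation p = 0.578), and without S51 and S48 r was -0.33, so that the positive value rests on those tumors. In the Rag2+/- group r was 0.81 (exact permutation p = 0.0172), rho 0.88 (exact permutation p = 0.00724) and r without S55 and S53 was 0.71. The list mean of 9 class I genes gave r = 0.59 (permutation p = 0.0072) and rho = 0.59 (permutation p = 0.00981) over 19 tumors, and r = 0.49 without S51 and S56. In the Rag2-/- group the class I relation was r = 0.46 (permutation p = 0.151) and rho = 0.39 (permutation p = 0.237), and r was -0.04 without S51 and S48, whereas in the Rag2+/- group it was r = 0.81 (exact permutation p = 0.0154) and rho = 0.79 (exact permutation p = 0.0279), and r = 0.79 without S56 and S58.

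Of 31 other genes of the pathway, 28 could be tested and 0 were called, as were 0 of 9 class I genes and 0 of the 12 tested interferon gamma targets. The promoter factors gave the smallest p-value. Rfx5, the DNA-binding subunit of the RFX complex that recognises the X box, averaged 2.43 ± 0.28 (SD, n = 11) in the Rag2-/- and 1.92 ± 0.29 (SD, n = 8) in the Rag2+/- group, 0.51 apart (exact permutation p = 0.0015, limma adjusted p = 0.301). By the same exact permutation test 14.9% of all genes had p under 0.05. Its partners were not higher, with Rfxap at -0.34 (exact permutation p = 0.0462) and Rfxank at -0.07 (exact permutation p = 0.709) for the same difference.

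None of the other groups of the list held a called gene. The list of 7 genes for endosomal proteases and the thiol reductase Ifi30 had differences of -0.08 (Ctsd) to 0.45 (Lgmn), none with an unadjusted limma p under 0.05, and Ctss, the cathepsin that trims the invariant chain, had a difference of 0.14 (exact permutation p = 0.633). Ifngr2, a chain of the interferon gamma receptor, had a difference of -0.31 (exact permutation p = 0.00879, limma adjusted p = 0.301). Cd4, the coreceptor that binds class II, averaged 0.51 ± 0.73 (SD, n = 11) in Rag2-/- and 1.52 ± 0.88 (SD, n = 8) in Rag2+/- tumors (exact permutation p = 0.0151, limma adjusted p = 0.301), with overlapping values. March1, the ubiquitin ligase that removes class II from the cell surface, had a difference of 0.62 (exact permutation p = 0.233).

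The common movement was taken out by subtracting H2-Aa within each tumor. By genotype, 2 of 9 members then differed at an unadjusted exact permutation p of 0.05. By the same test 3.15% of 12825 genes did, and without the subtraction 14.9% of all genes tested did. The 3.15% is not a like background, since subtracting H2-Aa adds its spread to genes that do not follow it. H2-Oa and H2-Ob, below the filter, are among the 9 members but not among the 12825 genes. The subtraction was chosen after the values were seen. H2-DMb1 minus H2-Aa was -3.14 ± 0.16 (SD, n = 11) in the Rag2-/- group and -3.53 ± 0.34 (SD, n = 8) in the Rag2+/- group, which differ by 0.40 (exact permutation p = 0.00376). In Rag2-/- tumors the gap ranged from -3.39 to -2.93 with a median of -3.08, and in Rag2+/- tumors from -3.90 to -2.86 with a median of -3.59, so the groups overlapped. Leaving out each tumor in turn gave 0.34 to 0.49, with exact permutation p-values up to 0.00911 without S56, and the 15 tumors of the study's own comparison gave 0.32 (exact permutation p = 0.0301). With H2-Aa as a covariate in the limma fit the difference was 0.38 with an adjusted p of 0.286, so it did not pass, and 0.039% of all genes did.

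H2-Eb1 was the other, at -0.22 ± 0.10 (SD, n = 11) from H2-Aa in the Rag2-/- and at -0.098 ± 0.082 (SD, n = 8) in the Rag2+/- group, which differ by -0.12 (exact permutation p = 0.0128, limma adjusted p with the covariate = 0.376). The gaps of H2-Ab1, Cd74, Ciita, H2-DMa, H2-DMb2, H2-Oa and H2-Ob gave exact permutation p-values of 0.0868 or more. Against its own partner H2-DMa, H2-DMb1 was 0.36 units higher in Rag2-/- than in Rag2+/- tumors, a value given with no test.

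**Figure D4:**
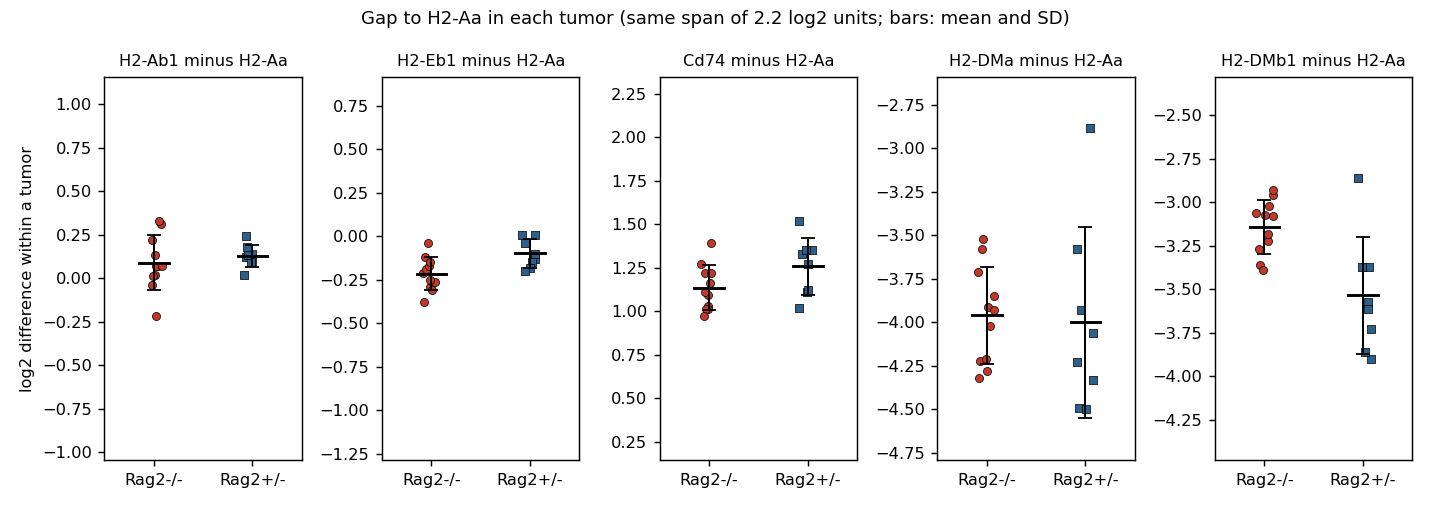
Difference in log2 value between each of 5 members and H2-Aa in the same tumor (y axes, all with the same span), for Rag2-/- (red circles) and Rag2+/- (blue squares) tumors, with mean and SD as black bars. The H2-DMb1 gap sits at -3.39 to -2.93 in Rag2-/- tumors and, but for S53 at -2.86, at -3.37 or lower in Rag2+/- tumors.

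The study's comparison of expression between the genotypes used 15 of the 19 tumors, 8 Rag2-/- and 7 Rag2+/-, leaving out S41, S46, S51 and S56. H2-Aa was at 9.47 in S46 and 9.13 in S51, the highest of the Rag2-/- group, at 7.61 in S41 and at 6.75 in S56. In the 15 tumors all 8 tested members were lower in Rag2-/- tumors, by -0.19 for H2-DMb1 to -0.61 for H2-Eb1, and 0 were called, where 0.116% of 12877 genes were. H2-DMa came closest, with a difference of -0.46 (exact permutation p = 0.0894, limma adjusted p = 0.241). The median over these 8 members was -0.51, against 0.05 over all genes tested. Most of these members vary together, so their shared direction is not 8 separate results. H2-Oa and H2-Ob, below the filter, had differences of 0.14 and -0.40 in the 15 tumors.

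**Figure D5:**
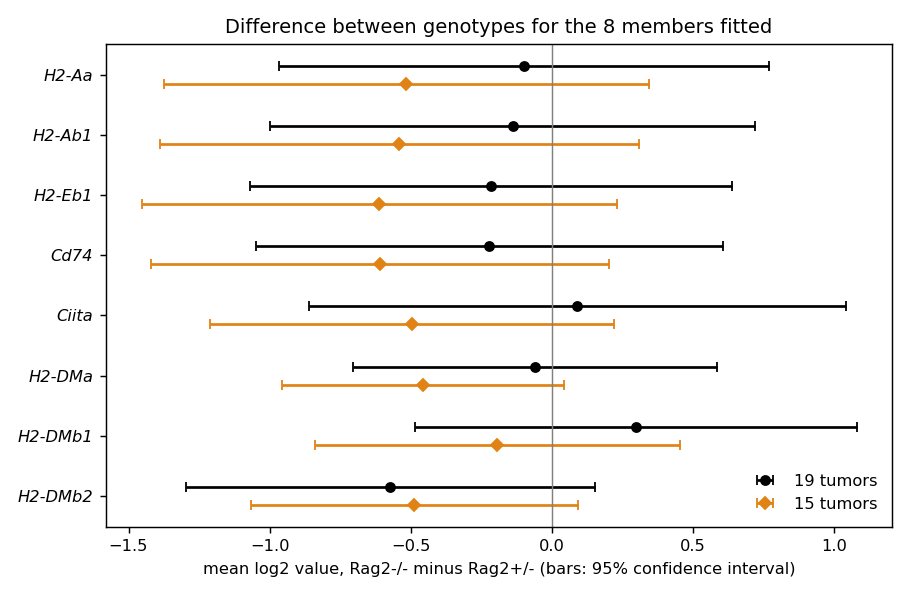
Mean log2 value in Rag2-/- minus Rag2+/- tumors (x axis) with its 95% confidence interval from limma, for the 8 members fitted (y axis), in 19 tumors (black circles) and in the 15 tumors of the study's comparison (orange diamonds). Every interval crosses 0, and the values for 15 tumors lie between -0.61 and -0.19.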

How the data were processed

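Libraries were prepared from total tumor RNA with the NEBNext Ultra II kit and sequenced as 150-base paired-end reads. The authors deposited log2 values of upper-quartile normalized FPKM, with 0.1 added as the lowest values show. The study's methods give this measure for neoantigen expression, after alignment to mouse B38 with the Omicsoft Sequence Aligner and Ensembl.R86 gene models, and give STAR and HTSeq for raw counts. The submitters' processing notes list Trimmomatic 0.36, STAR and HTSeq on mm10 without roles. The table has 1 column per tumor and each matched a label.

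The 10 members and all gene lists were chosen with earlier results of these data known. Text names members, list genes and the 10 other genes with the highest rho with H2-Aa. Genes with a mean above 0 were fitted with limma 3.58.1 (intensity trend, no covariate, R 4.3.3) with Benjamini-Hochberg adjustment over all genes tested at 0.05. Single genes were compared by two-sided exact permutation over 75582 splits of the tumors, and relations by 100000 permutations, or all pairings for 8 tumors. The fit was tested on simulated data. Depth was estimated from the steps between low values, of which 77.4 to 89.7% were whole fragments within 0.05, so fragment numbers are estimates. Each tumor came from its own mouse, and the labels give no batch. Gene coordinates are GENCODE vM21 (GRCm38) and promoters RefSeq (GRCm38.p6). The alternatives were 15 tumors, leaving out tumors, a pseudocount of 1, other scalings, other filters, no trend, and muscle, macrophage or Xist levels as covariates. Some planned items are not reported here.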

Additional observations from a re-analysis of the deposited data

Results flagged for a closer look

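H2-Oa in the Rag2+/- tumor S56 was listed at 0, a log2 value of -3.322, and lay farther from the other 7 Rag2+/- tumors than their own range allows under Dixon's criterion for 8 samples. S56 also had the lowest share of genes above 0 and the highest skeletal muscle list mean (13.74). The part of either in this value was not tested. Chance flags about 1 in 20 groups, and 10 genes were examined in the Rag2+/- group, while the Rag2-/- group with 11 tumors was not examined.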

How the results depend on the processing

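No paired analysis was possible because the labels give the tumors no replicate numbers. No member was called in the 19 tumors or in any of the 31 other limma fits, but sizes and directions moved. H2-Aa was at -0.52, Cd74 at -0.61 and H2-DMa at -0.46 in 15 tumors, and H2-Aa at -0.42 with the macrophage covariate. In 15 tumors Ciita was at -0.50 and H2-DMb1 at -0.19, and the gap of H2-DMb2 to H2-Aa turned to 0.029. Quantile normalization put H2-Aa at 0.042 and Ciita at -0.040 and gave no value for H2-Oa and H2-Ob, below the filter. The muscle covariate put H2-Aa at 0.27, H2-Ab1 at 0.22, H2-Eb1 at 0.13, Cd74 at 0.10 and H2-DMa at 0.14. The macrophage covariate put Ciita at -0.29 and H2-DMb1 at -0.020. With Xist as covariate (above 0 in 7 of 11 Rag2-/- and 3 of 8 Rag2+/- tumors) H2-Aa was at 0.18, H2-Ab1 at 0.12, H2-Eb1 at 0.039, Cd74 at 0.044 and H2-DMa at 0.15. Without S41 and S56 (chosen after seeing the data) Ciita was at -0.075. The cause of these shifts was not tested.

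Leaving out 1 tumor at a time gave -0.37 to 0.064 for H2-Aa, -0.41 to 0.040 for H2-Ab1, -0.48 to -0.05 for H2-Eb1, -0.46 to -0.05 for Cd74, -0.17 to 0.22 for Ciita, -0.22 to 0.053 for H2-DMa, 0.02 to 0.43 for H2-DMb1, -0.71 to -0.37 for H2-DMb2, -0.052 to 0.65 for H2-Oa and -0.38 to 0.13 for H2-Ob. The number of all genes called, 4 in 19 tumors, was 3 to 7 when 1 tumor was left out, 15 in 15 tumors, 8 without S41 and S56, 26 with no filter, 2 with the muscle covariate and 0 with a mean above 2, where 1676 genes had an unadjusted p under 0.05.

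Depth limits H2-Oa, H2-Ob and H2-DMb2, whose median estimated fragments per tumor were 23.3 to 83.6 by group.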
